A study of Prunus persica with 9 samples.

Results

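The genes of miR169d (ENSRNA049996028) and miR530 (ENSRNA050003167) are 2 of the 210 pre_miRNA genes in a miRNA-Seq table of peach leaves. They were picked together because their mean levels fell from t0 through 1 h to 24 h in these same libraries. Their levels are therefore described here without a test of the fall. The leaves came from juvenile *Prunus persica* var. Big Top plants that had been produced in vitro and kept in a glasshouse. There were 3 libraries at t0, 3 at 1 h and 3 at 24 h after the leaf blades had been sprayed with 1 μM PpPep2. The t0 plants are described as untreated in the paper and as mock in the sample labels. No control was taken at 1 h or 24 h, so PpPep2 and the time or handling after t0 cannot be told apart. Each library pooled leaf blades of several plants with the central vein removed, and fewer cells with a miRNA cannot be told apart from less of it per cell.

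Plant elicitor peptides such as PpPep2 of peach are perceived by plants as danger signals when cells are damaged. A plant miRNA is cut out of a hairpin precursor, loaded on an ARGONAUTE protein and guides it to mRNAs with a complementary site, which are cleaved or less translated. The miR169 family is conserved among flowering plants. Its best-known targets are the mRNAs of NF-YA proteins, the subunits through which the NF-Y transcription factor contacts the CCAAT box, and in *Arabidopsis* this module is known for its part in drought and nutrient responses. Less is known of miR530, which in rice has been tied to the control of grain yield.

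The mature sequences deduced for both genes are printed here to show that the pair does not share one. They are the 5p strands given in the supplement of the study, whereas the counts are of the precursor genes and are not divided by strand. In each, capitals mark the seed, bases 2 to 8 from the 5′ end.
miR169d: uGAGCCAAggaugacuugcca
miR530: uCUGCAUUugcaccugcaccu
Both have 21 nt, both start with U and each holds 11 G or C (52.4%), although miR530 has 8 C and 3 G and miR169d has 5 C and 6 G. With the 5′ ends aligned they share 6 positions. Neither seed occurs in any of the other 38 mature sequences of the authors' list of 33 differentially expressed miRNA genes. Whether other peach loci give the same mature sequence was not tested, and the counts of each gene depend on how the authors' quantification divided reads between similar loci.

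The values are normalized counts, that is, reads per gene divided by a scaling factor of the library. The value of 1 read was worked out from the values. Every value above 0 was a whole multiple of a fixed step in its library, within 0.01 normalized counts. Reads given below are worked back with this step, after the authors' quantification had divided reads between similar loci. Only 64 to 80 low values per library were present where 100 were required for a count test, so the intervals on these reads are descriptive. The step ran from 0.488 to 2.84 normalized counts. Depth on pre_miRNA genes lay between 115519 and 546709 reads per library, with a median of 481412 at t0, 267132 at 1 h and 218684 at 24 h. Median depth thus decreased over the same conditions as both miRNAs. The shallowest library, with 115519 reads, was replicate 2 of t0, which had 42.7 normalized counts of miR169d and 435 of miR530, both within the range of the other t0 libraries. Brackets around a number of reads below are exact Poisson intervals at 95%, which cover counting error only, because several reads can stem from the same molecule after PCR.

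In replicates 1, 2 and 3, the miR169d gene had 58.5, 42.7 and 42.0 normalized counts at t0, 28.4, 20.6 and 31.1 at 1 h, and 4.92, 7.84 and 17.6 at 24 h. Each library at 1 h lay under each library at t0, and each library at 24 h lay under each library at 1 h. The means were 47.7 ± 9.32 before treatment (t0), 26.7 ± 5.45 after 1 h and 10.1 ± 6.65 after 24 h (SD, n = 3 each). The 1 h mean was 56.0% of the t0 mean, and the 24 h mean was 21.2% of it.

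The miR530 gene had 448, 435 and 289 normalized counts at t0, 348, 114 and 72.1 at 1 h, then 60.7, 96.7 and 70.5 at 24 h. Its means fell at both steps as well, but the libraries did not follow that order. Replicate 1 at 1 h, with 348, was above replicate 3 at t0, and replicate 3 at 1 h was under replicate 2 at 24 h. The means were 391 ± 88.4 before treatment (t0), 178 ± 149 after 1 h and 76.0 ± 18.6 after 24 h (SD, n = 3 each), so that the 1 h mean was 45.6% of the t0 mean and the 24 h mean 19.4% of it.

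**Figure D1:**
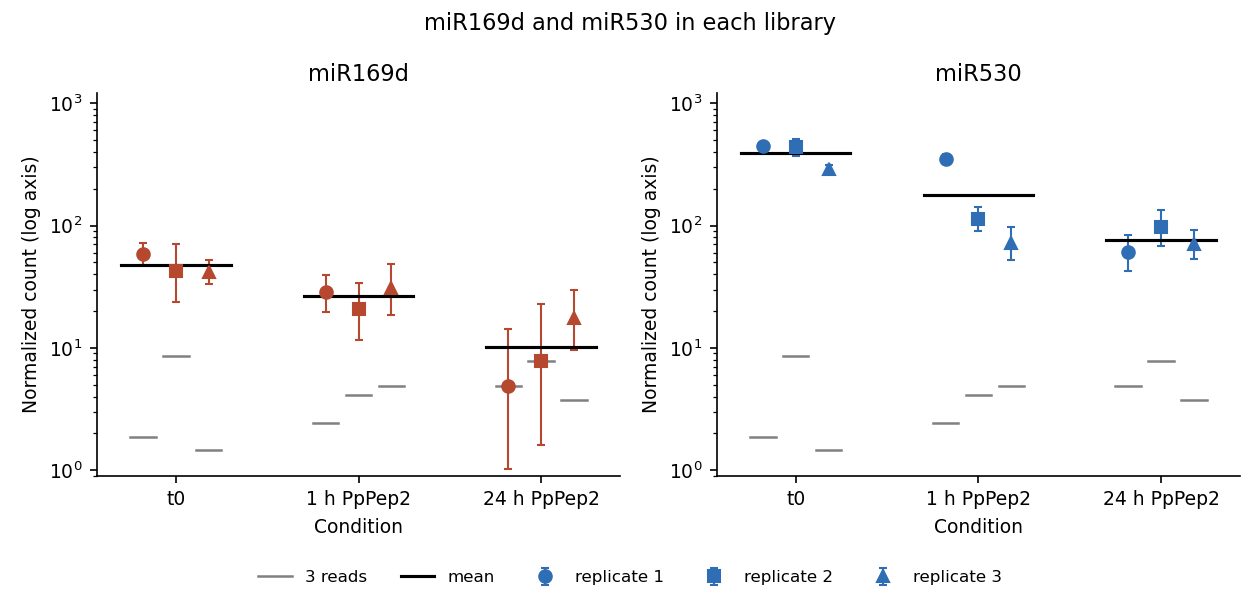
Normalized counts (log axis) of miR169d (left) and miR530 (right) in each library at t0, 1 h and 24 h; symbols stand for replicates 1 to 3, vertical bars for the 95% Poisson counting interval, black lines for the mean and grey dashes for the value of 3 reads in that library. The miR169d libraries step down at each time, with 2 of the 24 h libraries on the 3-read line, while miR530 at 1 h spreads between 72.1 and 348.

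The order of the libraries was set against that of all 135 genes whose mean over the 9 libraries reached 5 normalized counts, a minimum that both miRNAs passed. Means in the order t0 over 1 h over 24 h were found for 38 genes (28.1%). A full separation of the 9 libraries in that order was found for 1 gene (0.741%), which was miR169d, and the mirror order, rising at each time, for 0 genes. For 24 h against t0 alone, all libraries were lower for 29 genes (21.5%), both miRNAs among them. For 1 h against t0 this held for 17 genes (12.6%) and for 24 h against 1 h for 13 (9.63%), with miR169d and without miR530 in both cases. As the pair was chosen on this pattern, these shares place it in the table and test nothing.

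The full separation of miR169d held when totals, or upper quartiles, were made equal among libraries. With equal totals, 2 genes were fully ordered. At the borders between conditions, however, the counting intervals of single libraries overlapped. The highest 1 h library, replicate 3, held 19 reads (11.4 to 29.7), or 18.7 to 48.6 normalized counts, whereas the lowest t0 library, replicate 3, held 86 reads, or 33.6 to 51.9 normalized counts. The interval of the highest 24 h library, 9.63 to 29.6, overlapped that of the lowest 1 h library, 11.5 to 34.0, too.

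At 24 h both miRNAs were lower than at t0 by about the same factor, although they differ in abundance. On the scale of log2(normalized count + 1), the 24 h difference from t0 was -2.28 (standard error 0.42) for miR169d and -2.35 (standard error 0.51) for miR530. The standard errors come from limma, fitted to all 9 libraries and all genes tested. The median difference of all genes tested was -0.01. On this scale miR530 had the seventh and miR169d the eighth most negative value among the genes tested. Over the 135 genes tested, the limma fit with Benjamini-Hochberg adjustment called 19 (14.1%) between 24 h and t0 at an adjusted p under 0.05. Of these, 12 (8.89% of the genes tested) were lower at 24 h. No call is given for the pair in any comparison, since it was chosen on these same differences. Without t0 replicate 1, or without t0 replicate 3, limma called 0 of the genes tested, with 37 at an unadjusted p under 0.05 in each case.

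The number of reads behind these falls differed widely. At 24 h miR169d was counted with 3, 3 and 14 reads in replicates 1, 2 and 3, against 94, 15 and 86 reads at t0. The first 2 of these values equal the 3 reads taken as the limit of detection. For 3 reads the counting interval was 0.619 to 8.77 reads, so that replicate 1 at 24 h is placed between 1.01 and 14.4 normalized counts and replicate 2 between 1.62 and 22.9. For miR530 there were 37, 37 and 56 reads at 24 h, against 721, 153 and 592 at t0.

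Reads were also summed over the libraries of a condition and divided by the summed scaling factors of those libraries, not by their depth. In this way miR169d at 24 h came to 0.230 of its t0 level, from 20 reads against 195. The exact binomial counting interval was 0.137 to 0.365. For miR530 the ratio was 0.199, from 130 reads against 1466, with an interval of 0.165 to 0.238. The interval of miR530 thus lay within that of miR169d. For the single steps of miR169d the ratio was 0.552 (0.413 to 0.730) for 1 h over t0 and 0.417 (0.240 to 0.694) for 24 h over 1 h. For miR530 it was 0.592 (0.536 to 0.653) for 1 h over t0 and 0.336 (0.276 to 0.408) for 24 h over 1 h. These intervals leave out the spread between replicates, which for miR530 went far beyond counting at t0 and 1 h. As the pair was chosen for this fall, the intervals describe the counts and test nothing.

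Within a library, miR530 outnumbered miR169d throughout, as counts of precursor genes. How evenly the library preparation recovers their products was not tested, so the ratio is read only between libraries. Replicates 1, 2 and 3 gave a ratio of miR530 to miR169d of 7.67, 10.2 and 6.88 at t0, 12.3, 5.53 and 2.32 at 1 h, then 12.3, 12.3 and 4.00 at 24 h. Ratios at 24 h and at 1 h each spanned the range of the t0 ratios on both sides. On the log2 scale the ratio averaged 3.00 ± 0.29 before treatment (t0), 2.39 ± 1.19 after 1 h and 2.93 ± 0.86 after 24 h (SD, n = 3 each). The ranges of the 3 conditions overlapped.

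In the means of the log2 values the first step was smaller for miR169d than for miR530. The ratios of summed reads for 1 h over t0 had the reverse order, 0.552 for miR169d and 0.592 for miR530, with overlapping counting intervals. Whether the steps differ between the pair was not tested. For miR169d the log2 difference was -0.82 for 1 h minus t0 and -1.46 for 24 h minus 1 h (standard error 0.42 each), so that 35.8% of the 24 h fall was present at 1 h. For miR530 the differences were -1.42 and -0.92 (standard error 0.51 each), with 60.7% of the fall present at 1 h. On the linear scale of normalized counts the shares were 55.8% for miR169d and 67.5% for miR530, so that most of the miR169d fall was then present at 1 h and the pair lay closer together. At 1 h, 1 gene (0.741%) of the 135 tested was called in the limma fit. For 24 h against 1 h the same test called 0 genes, with 18 at an unadjusted p under 0.05.

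**Figure D2:**
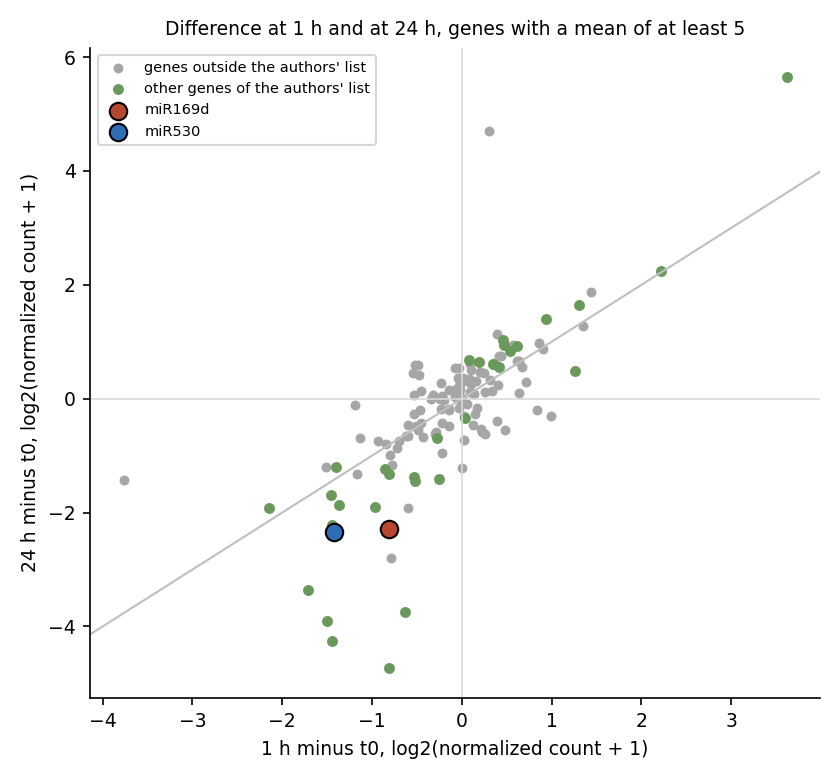
Difference of 1 h from t0 (x axis) and of 24 h from t0 (y axis) in mean log2(normalized count + 1) for the 135 genes tested; the diagonal marks equal differences at both times. Both miRNAs lie under the diagonal near -2.3 on the y axis, with miR530 at -1.42 and miR169d at -0.82 on the x axis.

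The early part of the miR530 fall rested on which 1 h libraries were used. Without replicate 1 of 1 h the log2 difference at 1 h was -2.07, with 88.1% of the fall present, and without replicate 3 of 1 h it was -0.94, with 40.01% present. The second step of miR530 was -0.28 without replicate 1 of 1 h and -1.41 without replicate 3. For miR169d the share present at 1 h stayed between 28.4% and 42.8% with any 1 library left out. With means weighted by the scaling factor of each library, chosen after the data were seen, the share was 40.4% for miR169d and 32.5% for miR530. The order of the pair thus turned. It turned without replicate 3 of 1 h too, where the share was 40.9% for miR169d.

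The replicates at 1 h were placed between the t0 mean, taken as 0%, and the 24 h mean, taken as 100%, on the log2 scale. For miR530 replicate 1 stood at 5.90%, replicate 2 at 74.1% and replicate 3 at 102%. Thus 1 library was near the t0 level, and another was at the 24 h level. For miR169d the replicates stood at 31.2%, 50.7% and 25.6%, all of them well short of the 24 h mean. Replicate 3 was the farthest along for miR530 and the least far along for miR169d.

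**Figure D3:**
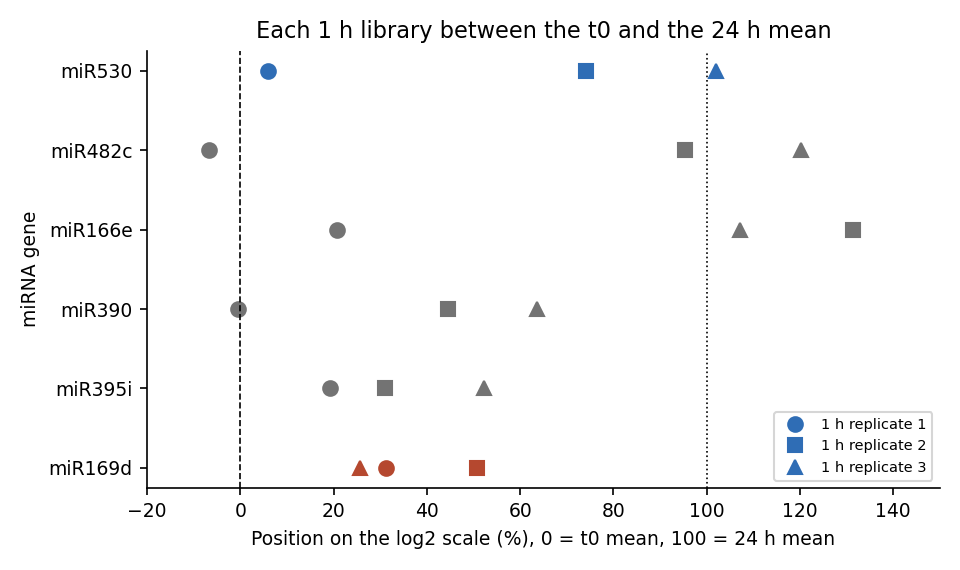
Position of each 1 h library between the t0 mean (0%, dashed line) and the 24 h mean (100%, dotted line) on the log2 scale for miR530, miR169d and the 4 named genes most like them; symbols stand for 1 h replicates 1 to 3. Replicate 1 lies near 0% for miR530, miR482c and miR390, while the 3 miR169d positions stay between 25.6% and 50.7%.

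The spread between replicates was compared with that from counting alone, as the chi-square of the reads per degree of freedom, which is near 1 if libraries differ only by counting. It was 2.65 at t0, 0.790 at 1 h and 2.73 at 24 h for miR169d. For miR530 it was 33.8 at t0, 96.5 at 1 h and 2.15 at 24 h. Medians over the genes tested were 3.56 at t0, 4.67 at 1 h and 2.79 at 24 h. Thus the 1 h libraries of miR169d differed by no more than their low number of reads gives, while those of miR530 differed far beyond it. The measure grows with the number of reads. In relative terms, the standard deviation was 19.5%, 20.4% and 65.7% of the mean for miR169d at t0, 1 h and 24 h, and 22.6%, 83.5% and 24.6% for miR530. The widest relative spread was at 24 h in miR169d and at 1 h in miR530.

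**Figure D4:**
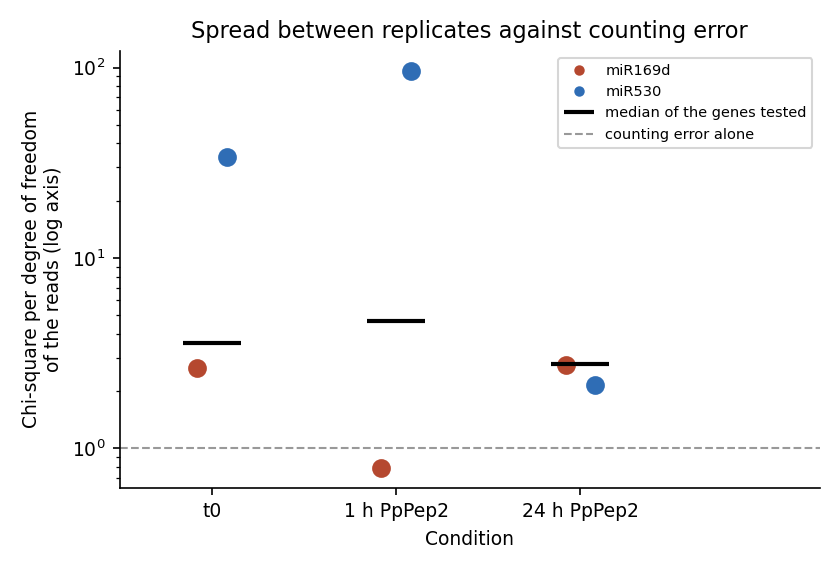
Chi-square of the reads per degree of freedom (log axis) among the 3 libraries of each condition for miR169d and miR530; black dashes are medians over the 135 genes tested, and the dashed line at 1 marks counting error alone. At 1 h miR530 is at 96.5 and miR169d at 0.790, and at 24 h both are near the median of 2.79.

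The deviations of the libraries from the mean of their condition had not been used to choose the pair. Over the 9 libraries, these deviations gave Pearson's r = 0.09 (p = 0.676) and Spearman's rho = 0.15 (p = 0.681) between miR169d and miR530 in a two-sided exact permutation test within conditions over 216 permutations. Adjusted over both coefficients, each p was 0.681. Without the 2 libraries farthest from the median of miR169d, replicates 1 and 3 of 24 h, r was 0.13. That leaves a single library at 24 h, whose deviation from its own mean is fixed, so this value rests on t0 and 1 h only. The libraries high in miR169d for their condition were not detectably high or low in miR530, although 9 libraries leave wide room for a relation of either sign.

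The genes with the most similar pattern were sought by Pearson correlation of log2(normalized count + 1) over the 9 libraries, among all other genes tested. The libraries share the 3 conditions, so the coefficients describe the profiles only. For miR169d the closest was miR395i (r = 0.93), a regulator of sulfate assimilation genes, with 49.9 ± 8.65 normalized counts before treatment (t0), 18.9 ± 8.90 after 1 h and 5.87 ± 10.2 after 24 h (SD, n = 3 each). It was listed at 0 in 2 of the 24 h libraries, and its mature sequence is shared with other MIR395 genes. Next came miR390 (r = 0.88), which triggers tasiRNAs against auxin response factors, and ENSRNA049996642 (r = 0.86), for which no name was used here. Counts of miR390 were 416 ± 68.5 before treatment (t0), 299 ± 103 after 1 h and 152 ± 24.6 after 24 h (SD, n = 3 each).

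For miR530 the closest was miR482c (r = 0.96), of a family that targets resistance genes, with 4406 ± 455 normalized counts before treatment (t0), 2720 ± 1683 after 1 h and 1915 ± 518 after 24 h (SD, n = 3 each). It was followed by ENSRNA050004180 (r = 0.94), which has no name here, and by miR166e (r = 0.94), whose family targets HD-ZIP transcription factors. At 1 h miR482c had 4652, 1940 and 1569 normalized counts in replicates 1, 2 and 3, and miR166e had 1999, 547 and 726. In both, as in miR530, replicate 1 was the highest of the 1 h libraries. Both genes were picked by correlation with miR530 over these same libraries, so this likeness is no separate evidence. Among the genes closest to miR169d, replicate 1 was the highest 1 h library in miR395i and miR390 too, but not in ENSRNA049996642. The correlation of miR169d with miR530 was 0.76, which placed miR530 at rank 10 of 134 for miR169d, and miR169d at rank 12 for miR530.

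Among the 33 genes of the authors' list, 20 were lower at 24 h than at t0 in the mean of the log2 values, and 17 of these decreased at both steps. The list was chosen by the study on these samples and gives no independent evidence. Over the 20 genes the median log2 difference was -0.91 at 1 h and -1.88 at 24 h, and the median share of the fall present at 1 h was 45.5%. With all libraries and unweighted means, the share of miR169d lay under this median and that of miR530 above it. The share of miR530 was 32.5% with means weighted by the scaling factor and 40.01% without replicate 3 of 1 h. The median was not computed again for these settings. In the miR535a gene, by comparison, the 1 h difference of -2.15 was already larger than the 24 h difference of -1.92. For miR390 the share was 35.9%, next to that of miR169d.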

How the data were processed

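The deposited values are a signal, read counts of pre_miRNA genes that the authors divided by a factor for each library and printed to 2 decimals. Per the study's methods and processing notes, reads were trimmed with Trim Galore 0.6.6, mapped with STAR 2.5.3a to Prunus_persica_NCBIv2, quantified with RSEM 1.3.0 on Ensembl Plants annotation and normalized and tested by the authors with DESeq2 1.26.0. This scaling and the division of reads between similar loci are contained in every value.

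Groups came from the sample titles. Both miRNAs and the lists were chosen with earlier results of these data known. Genes with a mean of at least 5 (135 of 210) were tested on the scale log2(normalized count + 1) by limma (version 3.58.1, R 4.3.3), whose empirical Bayes step used the trend and which had no replicate block, with Benjamini-Hochberg adjustment over these genes. This fit was tested on simulated data. There every gene was given the same spread beyond counting, whereas in these libraries that spread differed between genes. A count test on reads worked back from the values was not run, because only 64 to 80 low values per library were present where 100 were required. Replicates of a condition differed by more than counting (chi-square of 14.7 to 176 per degree of freedom). The genes named are the pair, the 3 genes most correlated with each and fully ordered genes of the authors' list, while miR535a was chosen after its values were seen. None of the 210 identifiers matched the reference table (0 matches), so no positions are given. Alternatives tried were another pseudocount (0.5 or 5), equal totals or upper quartiles among libraries, minimum means, limma without the trend or on 6 libraries, a replicate block and each library left out. Other computations used Python 3.11.15, numpy 2.4.6, pandas 2.3.3, scipy 1.17.1 and matplotlib 3.10.9.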

Additional observations from a re-analysis of the deposited data

How the results depend on the processing

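Every log2 difference, share and ratio of miR169d and miR530 kept its sign under each alternative run. Each also moved by less than the replicate spread, which is a loose limit. Leaving out 1 of 3 libraries cannot move a difference that far, and the replicate block returned the same values. For the share of miR530 that spread was 50.6 percentage points. This share ran from 32.5% (means weighted by the scaling factor) to 88.1% (without replicate 1 of 1 h). Equal library totals shifted the median log2 difference of all genes tested to -0.30 at 24 h and -0.20 at 1 h, equal upper quartiles shifted it to 0.17 and 0.25, and both miRNAs stayed lower at both times. Leaving out 1 library at a time, the 24 h difference from t0 ran from -2.73 to -1.91 for miR169d and from -2.55 to -2.20 for miR530, and the 1 h difference from -0.93 to -0.65 and from -2.07 to -0.94.

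Numbers of genes called by limma moved more. At 1 h there were 2 when totals and 7 when upper quartiles were equal, and 1 to 18 with a library left out, the 18 without replicate 1 of 1 h. At 24 h there were 12 without the trend, 31 with only the 6 libraries compared and 0 to 35 with a library left out. The count was 0 without t0 replicate 1 or 3 (37 at an unadjusted p under 0.05 in each) and 35 without replicate 1 of 1 h. It was 7 without t0 replicate 2 or without 24 h replicate 3, 5 without 24 h replicate 1 and 10 without 24 h replicate 2. For 24 h against 1 h it was 0 to 2 with a library left out, with the 2 found without 24 h replicate 3. With the replicate number as a block, 10 genes were called at 24 h. The numbers share no plant or day in the labels. Deviations of samples with the same number had correlations of -0.41 to 0.17 over 9 pairs. A sample correlated best with its own number in 9 of 18 comparisons. Each comparison was a choice among 3 libraries, and whether 9 of 18 exceeds chance was not tested. Full order of all libraries was found for 2 genes with equal totals and for 1 to 4 with a library left out. The correlation of deviations (Pearson's r) was -0.0702 to 0.32 with a library left out, and the -0.0702 was without 24 h replicate 1. The planned tests on whole reads were not run. Reads limit miR169d at 24 h, where 3 reads stand behind 2 of the 3 values.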

Other observations

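The 1 h replicates took different places in different falling miRNAs. Positions were taken between the t0 mean (0%) and the 24 h mean (100%). The authors' list holds 11 falling genes outside the MIR395 family, miR169d and miR530 among them. Over these 11, replicate 1 of 1 h stood at a median of 5.90%, and replicates 2 and 3 at 74.1% and 101%. The medians of replicates 1 and 2 are the values of miR530 itself. Replicate 1 was the library nearest the t0 side in 8 of these 11 genes and the farthest along in 2. Over the 9 MIR395 genes replicate 1 stood at a median of 79.7%, and replicates 2 and 3 at 31.0% and 18.4%, and it was farthest along in 7 of the 9. Of the MIR395 genes, all but miR395a share a mature sequence and are not independent of each other. The grouping was made after the values were seen, and no test was run.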
